A study of Mus musculus with 8 samples.

Results

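The medial habenula is a small cholinergic nucleus above the thalamus, and 9 genes tied to it or to its nicotinic acetylcholine receptors were followed across 8 mouse brain libraries. They are the transcription factor gene Pou4f1, the orphan receptor gene Gpr151, Nwd2, and the nicotinic subunit genes Chrna3, Chrnb4, Chrnb3, Chrna4, Chrnb2 and Chrna7. Each was taken as the row of the deposited count table whose symbol matched exactly, which gave 9 of the 21959 genes listed, and all 9 passed the filter on low counts. The list was chosen on measured values, since results of these same libraries were known when it was drawn up, so the members' fold changes are described with their errors and no p-value is printed for any of them. Only the number of members called is given, beside the share called over all genes.

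The study concerned the sedative action of isoliensinine (IsoL), an alkaloid from plants, in mice. The 4 Model libraries come from wild-type mice labelled as treated with PCPA (para-chlorophenylalanine, which blocks the serotonin-making enzyme tryptophan hydroxylase), and the 4 IsoL libraries from wild-type mice labelled as treated with isoliensinine. The design text gives female ICR mice, dosing over 7 days with IsoL at 12.5, 25 or 50 mg/kg, and hypothalamus as the tissue taken, but the tissue label says brain. The labels give neither the dose that was sequenced nor whether the IsoL mice also had PCPA, untreated and alprazolam mice were not analysed here, and separate animals behind the libraries of a group are not stated, so that any error or p-value here covers the scatter among libraries, which may be technical.

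Nicotinic receptors are channels built of several subunits that open when acetylcholine or nicotine binds. Most of those in the brain hold the subunits encoded by Chrna4 and Chrnb2, or by Chrna7 alone, whereas neurons of the medial habenula are known for receptors built from the products of Chrna3 and Chrnb4, often with those of Chrna5 or Chrnb3. These neurons send their axons to the interpeduncular nucleus, release acetylcholine or substance P together with glutamate, depend on the POU domain factor encoded by Pou4f1 for their identity, and are studied for nicotine aversion and withdrawal.

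Each Model library held 14262836 to 15886850 gene counts and each IsoL library 15731923 to 21620466, with 16669 to 17183 genes detected. Levels are given in CPM, read counts after scaling for library size, on which 3 reads amount to 0.138 to 0.210. Of 14536 genes tested with edgeR's quasi-likelihood test, 17 were higher and 23 lower in IsoL at a Benjamini-Hochberg adjusted p of at most 0.05, a count of 40 that became 146 without Model 2 and 6 without Model 4 or without IsoL 2. The library Model 2 stood apart, its chi-square over degrees of freedom being 11.4 to 15.9 against every other library where other pairs ran from 2.58 to 10.1, and the members' fold changes are also given without it. The further gene lists below were likewise drawn up with results of these data known, their summed levels cover every listed gene, tested or not, and their counts at an unadjusted p under 0.05 stand against 13.2% of all tested genes. Y-linked genes summed to 301.2 to 353.8 CPM over all 8 libraries, which goes against the female sex in the design text. Markers of several brain regions were read in every library, among them thalamus markers at 1491 to 1822 summed CPM and hypothalamus markers at 128.1 to 323.3.

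The promoter windows of 4 subunit genes are shown because the members fell into pairs: Chrna3 and Chrnb4 lie next to each other and shared their pattern over the libraries, and Chrna4 and Chrnb2 hardly varied. Each run is the 250 bases before a start site in RefSeq on GRCm38.p6, 5′ to 3′ on the gene's strand, with the GC box letters GGGCGG, or their reverse complement, in capitals.

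Chrna3, chr9:55026563-55026812, minus strand: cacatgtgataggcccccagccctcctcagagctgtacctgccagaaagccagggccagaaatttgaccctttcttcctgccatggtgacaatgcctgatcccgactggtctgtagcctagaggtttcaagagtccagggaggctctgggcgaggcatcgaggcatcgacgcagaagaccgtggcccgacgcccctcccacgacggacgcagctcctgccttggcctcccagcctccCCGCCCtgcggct
Chrnb4, chr9:55048545-55048794, minus strand: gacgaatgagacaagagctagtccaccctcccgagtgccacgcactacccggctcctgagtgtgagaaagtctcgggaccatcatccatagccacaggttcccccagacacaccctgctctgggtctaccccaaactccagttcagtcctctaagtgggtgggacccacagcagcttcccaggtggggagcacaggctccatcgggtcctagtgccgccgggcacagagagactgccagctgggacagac
Chrna4, chr2:181039178-181039427, minus strand: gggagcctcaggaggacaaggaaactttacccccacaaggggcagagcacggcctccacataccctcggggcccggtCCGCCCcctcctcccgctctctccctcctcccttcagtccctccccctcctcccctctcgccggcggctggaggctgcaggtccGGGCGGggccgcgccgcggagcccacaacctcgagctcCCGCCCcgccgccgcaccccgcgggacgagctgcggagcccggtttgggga
Chrnb2, chr3:89764633-89764882, minus strand: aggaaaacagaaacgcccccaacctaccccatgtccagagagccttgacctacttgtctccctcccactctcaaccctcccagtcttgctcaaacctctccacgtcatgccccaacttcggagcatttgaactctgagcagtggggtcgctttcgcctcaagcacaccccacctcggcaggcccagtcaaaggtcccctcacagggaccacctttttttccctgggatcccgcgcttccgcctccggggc

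Both strands were searched for the letters GGGCGG (a GC box), CAGCTG (an E-box) and TAATTA (a homeodomain core), and these do not overlap one another. The GC box letters occur in 32.7% of the 32851 promoter windows of this length, CAGCTG in 13.001% and TAATTA in 4.84%. The window of Chrna4 held 3 GC boxes, those of Chrna3 and Chrna7 1 each, that of Pou4f1 2 that overlap, and those of Chrnb4, Chrnb2 and Nwd2 none. CAGCTG stood once in the windows of Chrnb4 and Pou4f1, and TAATTA in none of the 7 windows found. The share of G and C was 63.2% for Chrna3, 61.2% for Chrnb4, 74.4% for Chrna4 and 59.6% for Chrnb2, against a median of 52.4% over all windows. Gpr151 and Chrnb3 were not matched. The windows of the varying and the steady pair thus did not part by GC box count, and a match of letters is only a description.

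Pou4f1 encodes a homeodomain factor that medial habenula neurons need to take on and keep their identity, and it is also made in parts of the dorsal midbrain. Its level was 4.34, 7.07, 10.7 and 9.17 CPM in Model 1 to 4 and 16.6, 11.4, 14.2 and 19.0 CPM in IsoL 1 to 4. It was the only member whose groups did not overlap, every IsoL library lying above every Model library, as was the case for 4.05% of all tested genes. Group means were 7.82 ± 2.76 and 15.3 ± 3.24 CPM (SD, n = 4), a log2 fold change of 0.97 with a standard error of 0.25 and a 95% interval from 0.40 to 1.55. With 1 library left out at a time the log2 fold change ran from 0.77 (without Model 1) to 1.16 (without Model 3), and it was 0.92 without Model 2.

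Gpr151 encodes an orphan G protein-coupled receptor carried on habenular axons. It stood at 3.99 and 4.88 CPM in Model 1 and 2, at 14.9 and 10.8 CPM in Model 3 and 4, and at 13.9, 12.5, 13.2 and 16.0 CPM in IsoL 1 to 4. Model 3 was as high as the IsoL libraries and only IsoL 4 exceeded it, so the groups overlapped, and the low mean of the Model group came from Model 1 and Model 2. The means were 8.64 ± 5.15 and 13.9 ± 1.49 CPM (SD, n = 4), and the log2 fold change of 0.69 had a standard error of 0.40 and a 95% interval from -0.25 to 1.63. Without Model 1 it was 0.46, without Model 2 0.49 and without Model 3 1.09.

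Nwd2 encodes a protein with NACHT and WD repeat domains. It was the most counted of the members with this pattern, at 29.6, 33.0, 74.2 and 53.6 CPM in Model 1 to 4 and 60.4, 57.9, 68.6 and 73.4 CPM in IsoL 1 to 4. Model 1 and Model 2 were again the lowest libraries, Model 4 lay between them and IsoL 2, and Model 3 was the highest of all. The log2 fold change was 0.45 with a standard error of 0.31 and a 95% interval from -0.28 to 1.19, and it ran from 0.28 (without Model 1) to 0.75 (without Model 3) as single libraries were left out, with 0.31 without Model 2.

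Chrna3 encodes the agonist-binding alpha subunit of the habenular and ganglionic receptor. Its level was 10.4, 8.70, 19.3 and 12.7 CPM in Model 1 to 4 and 17.5, 13.2, 16.1 and 20.7 CPM in IsoL 1 to 4. The groups overlapped through Model 3, which only IsoL 4 exceeded. Means of 12.8 ± 4.63 and 16.9 ± 3.12 CPM (SD, n = 4) gave a log2 fold change of 0.41 with a standard error of 0.24 and a 95% interval from -0.14 to 0.95, and the fold ran from 0.26 (without Model 2) to 0.68 (without Model 3).

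Chrnb4 encodes the beta subunit that pairs with the Chrna3 product. It had the lowest counts of the 9, with 45, 48, 113 and 79 reads in Model 1 to 4 and 117, 91, 122 and 214 in IsoL 1 to 4, or 3.15, 3.004, 7.86 and 5.36 CPM against 7.18, 5.28, 7.72 and 9.81 CPM. Model 1 and Model 2 were the lowest, and IsoL 2 lay just under Model 4. The log2 fold change was 0.64 with a standard error of 0.31 and a 95% interval from -0.05 to 1.33, and it ran from 0.46 (without Model 2) to 0.98 (without Model 3).

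**Figure D1:**
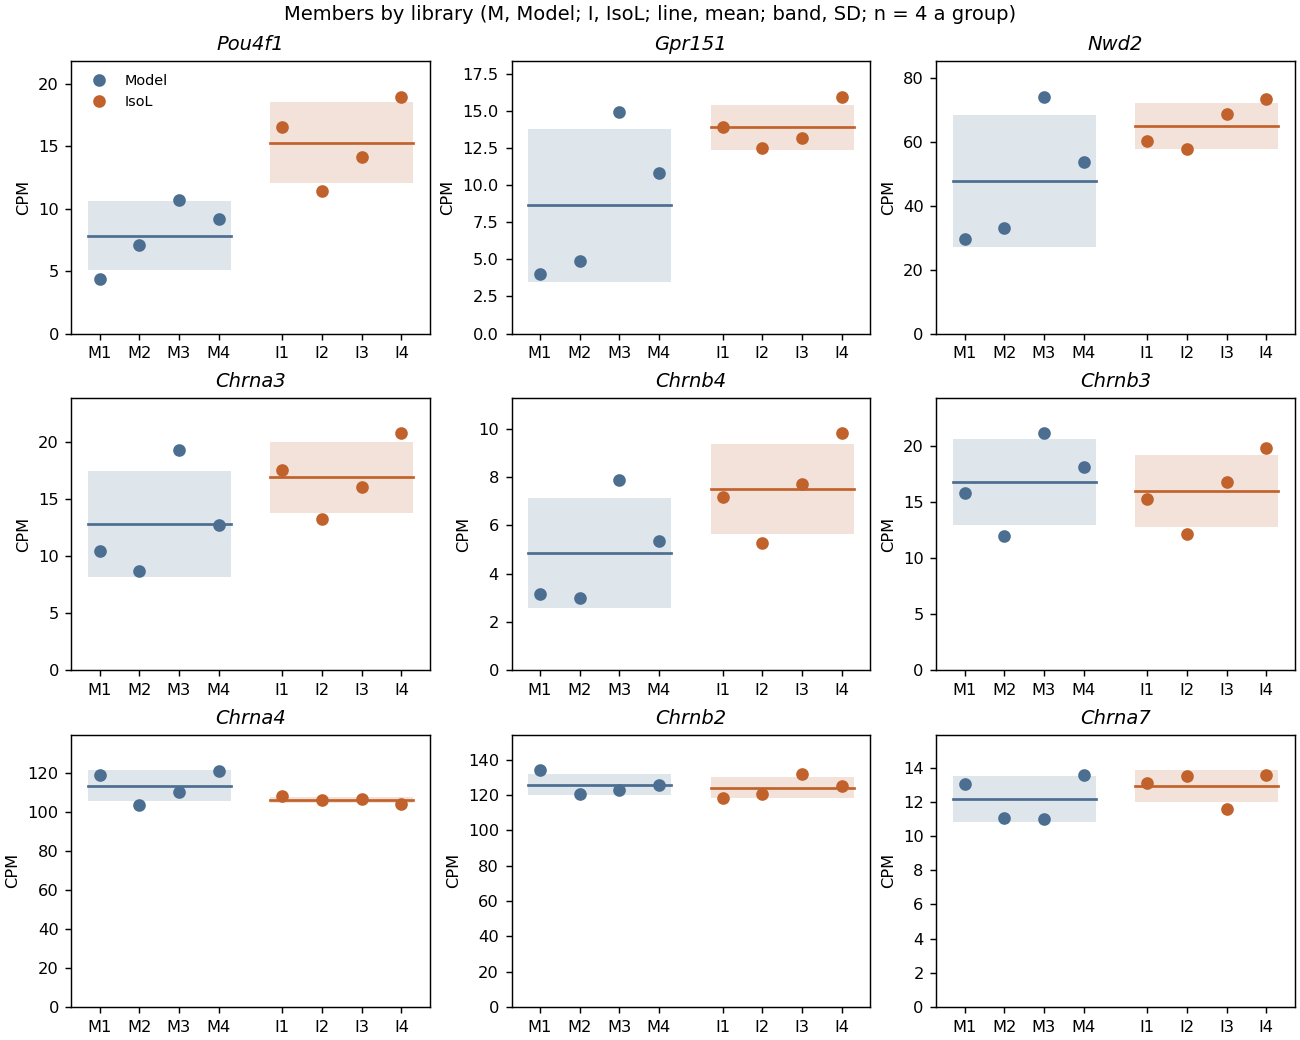
Each panel plots 1 gene in CPM (from 0, separate scales) for the 4 Model and 4 IsoL libraries, with a line at the group mean and a band of 1 SD. Pou4f1 is the only panel whose groups do not overlap; in Gpr151, Nwd2, Chrna3 and Chrnb4, Model 1 and Model 2 are lowest and Model 3 is at the IsoL level, whereas Chrna4, Chrnb2 and Chrna7 stay nearly level.

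The deposited table places Chrna3 at 54917395 to 54933846 and Chrnb4 at 54935438 to 54956063 of chromosome 9, both on the minus strand and 1591 bases apart, in a build not given in the sources used here. Chrna5 lies 2331 bases beyond Chrna3 on the plus strand. The ratio of Chrna3 to Chrnb4 in FPKM (reads scaled to gene length and to the library total) was 2.34, 2.05, 1.73 and 1.67 in Model 1 to 4 and 1.72, 1.77, 1.47 and 1.49 in IsoL 1 to 4. It therefore moved 1.59-fold from lowest to highest library, while Chrna3 itself moved 2.38-fold and Chrnb4 3.27-fold in CPM. Chrna5, the accessory subunit gene of the same cluster, did not share the pattern: its highest library was Model 2 at 4.51 CPM, and its lowest Model 1 at 2.24 CPM.

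Chrnb3 encodes an accessory beta subunit found in the medial habenula and in midbrain dopamine neurons. It stood at 15.8, 12.0, 21.1 and 18.1 CPM in Model 1 to 4 and at 15.3, 12.1, 16.8 and 19.8 CPM in IsoL 1 to 4. The groups lay over each other, with the lowest libraries being Model 2 and IsoL 2 and the highest Model 3. The log2 fold change was -0.06 with a standard error of 0.19 and a 95% interval from -0.47 to 0.35, and its sign turned without Model 3 (0.08) and without IsoL 2 (0.06), while it was -0.19 without Model 2. Set against Chrnb4 in FPKM, Chrnb3 was 1.57 to 2.94 times as high in the Model libraries and 1.18 to 1.34 times in the IsoL libraries, ranges that do not meet. That ratio was picked after its values were seen.

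Chrna4 encodes the alpha subunit of the most common heteromeric receptor of the brain. It read 118.9, 103.8, 110.2 and 121.1 CPM in Model 1 to 4 and 108.2, 106.0, 106.8 and 104.4 CPM in IsoL 1 to 4. All IsoL libraries lay within the span of the Model libraries. The log2 fold change was -0.09 with a standard error of 0.05 and a 95% interval from -0.21 to 0.02, and stayed between -0.13 (without Model 2) and -0.06 (without Model 4) with single libraries left out.

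Chrnb2 encodes the beta subunit that joins the Chrna4 product. It read 134.2, 120.4, 123.0 and 125.6 CPM in Model 1 to 4 and 118.6, 120.8, 132.1 and 125.2 CPM in IsoL 1 to 4, so that the groups overlapped over nearly their whole span. Its log2 fold change was -0.02 with a standard error of 0.05 and a 95% interval from -0.13 to 0.09, and its sign turned without Model 1 (0.01) and without IsoL 1 (0.0048), while it was -0.04 without Model 2. In the deposited table the gene overlaps Adar on the other strand by 7252 bases, and no strand marking is stated for the libraries. The Chrnb2 value is thus uncertain by any reads from the shared stretch that were wrongly added or left out.

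Chrna7 encodes the subunit that forms receptors without partners. It read 13.1, 11.1, 11.0 and 13.6 CPM in Model 1 to 4 and 13.1, 13.5, 11.6 and 13.6 CPM in IsoL 1 to 4, with overlapping groups. Its log2 fold change was 0.09 with a standard error of 0.10 and a 95% interval from -0.13 to 0.31, and ran from 0.05 (without Model 2) to 0.15 (without Model 4). The intervals of Chrna4, Chrnb2 and Chrna7 thus reach no lower than -0.21 and no higher than 0.31 on the log2 scale.

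Over all 9 members, 6 fold changes were above 0 and 3 below, with a median of 0.41 against -0.0015 for all tested genes. Since the list was drawn from these data, nothing is read from that median. In edgeR's quasi-likelihood fit, 0 of the 9 members passed an adjusted p of 0.05, where 0.275% of all tested genes did, and 1 had an unadjusted p under 0.05, as did 13.2% of all tested genes. DESeq2 called 1, Pou4f1, with a log2 fold change of 0.97 and a standard error of 0.23, where it called 312 of 18438 genes. Limma voom called 0 of the 9, where it called 238 of 14536 genes. Without Model 2, edgeR again called 0 of the 9.

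**Figure D2:**
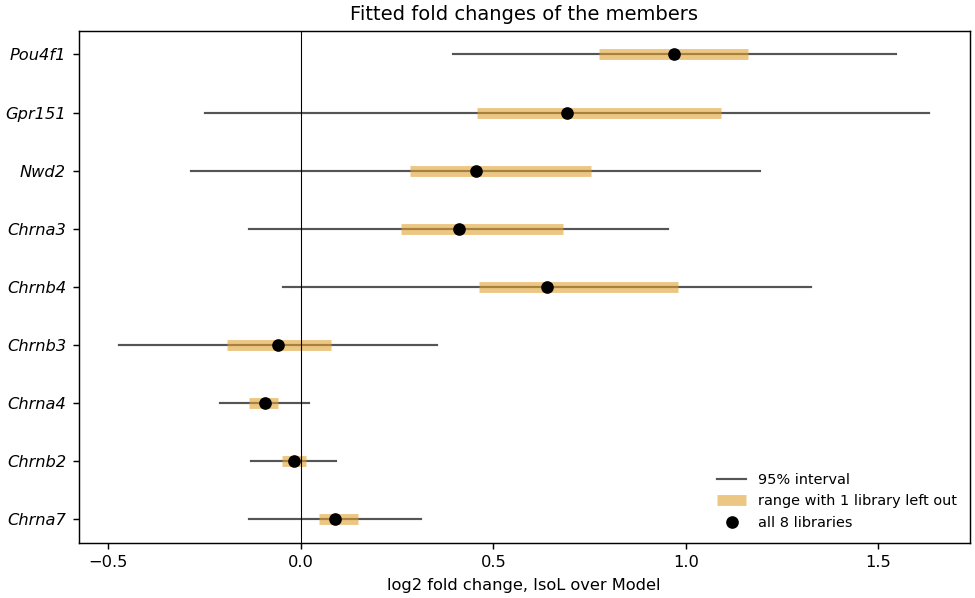
Log2 fold change of each member, IsoL over Model (horizontal axis), from the edgeR fit of 8 libraries, with the 95% interval as a line and the range over fits that each leave out 1 library as a bar. Pou4f1 at 0.97 has the only interval that lies wholly above 0, and Chrna4, Chrnb2 and Chrna7 have the narrowest.

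The members also differed in how unsteady they were within a group. The biological coefficient of variation, edgeR's estimate of the spread between libraries of 1 group beyond counting error, was 39.5% for Gpr151, 30.01% for Nwd2, 29.2% for Chrnb4, 24.5% for Pou4f1 and 23.1% for Chrna3. The median over all tested genes was 8.45%, and these 5 ranked 196, 408, 443, 858 and 1068 from the top of 14536 genes. Chrnb3 followed at 17.8%, Chrna7 at 9.67%, Chrna4 at 6.06% and Chrnb2 at 5.92%, the last pair being steadier than the median gene. Nwd2 had 424 to 1601 reads a library and Chrna7 158 to 296.

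**Figure D3:**
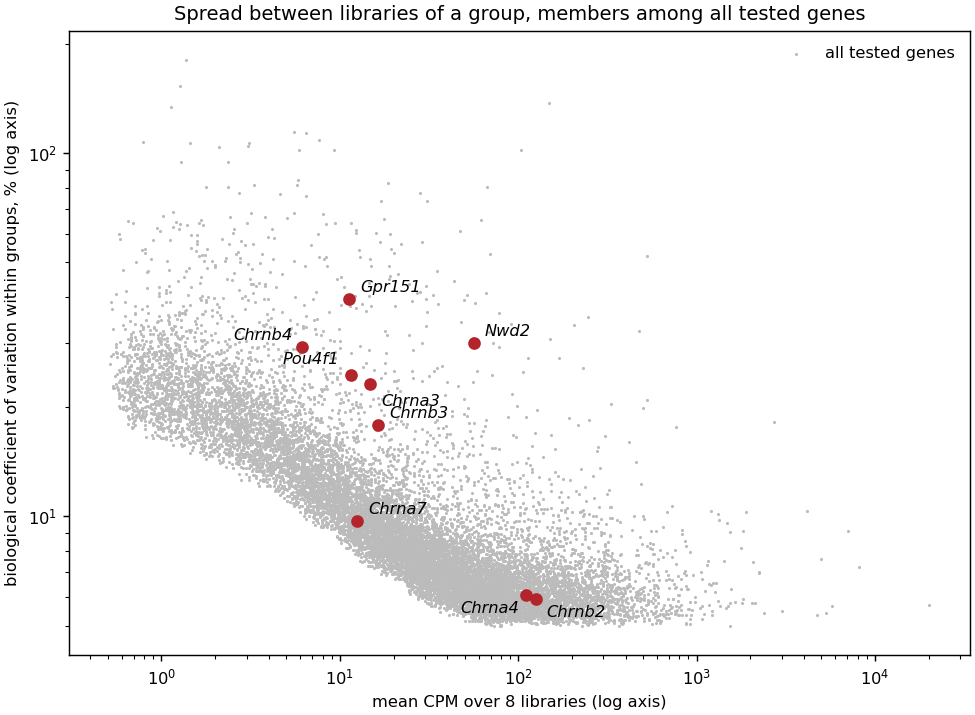
Every tested gene as a grey point, by its mean CPM over 8 libraries (log axis) and its biological coefficient of variation within groups in percent (log axis), with the 9 members in red. Gpr151, Nwd2, Chrnb4, Pou4f1 and Chrna3 lie above the bulk of genes of like level, and Chrna7, Chrna4 and Chrnb2 lie within it.

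Relative to the mean, the most unsteady members spread more in the Model group, although the SD of Pou4f1 was larger in IsoL (3.24 against 2.76 CPM). The coefficient of variation of CPM over the 4 Model libraries was 59.6% for Gpr151, 47.1% for Chrnb4, 43.3% for Nwd2, 36.3% for Chrna3 and 35.3% for Pou4f1. Over the 4 IsoL libraries the same genes had 10.7%, 24.9%, 11.1%, 18.5% and 21.2%. Chrnb2 by contrast had 4.76% and 4.79%. Single libraries moved some of these values: Pou4f1 in Model came to 20.3% without Model 1, Chrna3 in Model to 18.9% without Model 3, Chrnb3 in Model, 23.0% over 4 libraries, to 14.6% without Model 2, and Gpr151 in IsoL to 5.14% without IsoL 4. Chrnb2 came to 2.12% in Model without Model 1 and to 2.79% in IsoL without IsoL 3, and Chrna7 in IsoL, 7.20% over 4 libraries, to 1.999% without IsoL 3. Whether the groups differ in this spread was not tested.

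For 5 of the 9 members, Pou4f1, Gpr151, Nwd2, Chrna3 and Chrnb4, the lowest pair among the 8 libraries was Model 1 and Model 2, an order that 7.46% of all tested genes showed and that was looked for only after the members' values were seen. The mean of Gpr151, Chrna3 and Chrnb4 on a log2 scale centred on each gene's own mean was -0.87 and -0.88 in Model 1 and 2, 0.47 and -0.06 in Model 3 and 4, and 0.35, 0.02, 0.32 and 0.65 in IsoL 1 to 4. Model 2 and Model 3, of 1 group, thus lay further apart than Model 4 did from any IsoL library. In bulk tissue, fewer habenular cells in a sample and less RNA of these genes per cell cannot be told apart.

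Other markers of the medial habenula were set beside the members. Of 16 tested, 0 passed edgeR's adjusted p of 0.05 and 5 had an unadjusted p under 0.05, 9 lay above and 7 below the Model level, and the median log2 fold change was 0.10. The lowest pair was Model 1 and Model 2 for 5 of the 16, against 7.46% of all tested genes, and another pair for the other 11. Htr5b, a serotonin receptor gene, read 0.350, 0.688, 4.59 and 3.26 CPM in Model 1 to 4 and 3.68, 3.07, 4.05 and 4.35 CPM in IsoL 1 to 4. Chat, which makes acetylcholine, read 1.05, 0.751, 4.31 and 3.19 CPM and then 4.73, 4.46, 3.54 and 4.17 CPM. Slc5a7, the choline transporter gene, Slc18a3, the vesicular acetylcholine transporter gene, and Gng8, a G protein gamma subunit gene, had the same low pair.

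The 2 with the smallest p, Chrna6 and Adcyap1, were lower in every IsoL than in every Model library. Chrna6 is described with the subunit genes below. Adcyap1, a neuropeptide gene with wider expression, was at 83.9 CPM in Model and 60.7 CPM in IsoL on average (log2 fold change -0.47, SE 0.13, adjusted p 0.184, edgeR). In the other direction, 3 of the 16 were higher in every IsoL than in every Model library, as were 4.05% of all tested genes. These were Gng8, Kctd12 and Il18. Tac1 and Tac2, tachykinin precursor genes expressed in habenula and elsewhere in the brain, did not show the members' low pair. Tac1 was highest in Model 2 (62.8 CPM) and lowest in Model 3 (35.0 CPM), and Tac2 was lowest in Model 1 and IsoL 1 (8.74 and 8.96 CPM). The summed level of all 16 markers was 628.6 to 667.6 CPM in Model and 633.5 to 683.3 CPM in IsoL, carried by abundant genes with wider expression such as Calb2. The summed level thus did not show the members' low pair, but it weights the abundant genes. The mean centred log2 CPM of the 16 markers was -0.46 and -0.28 in Model 1 and 2 and 0.25 and 0.09 in Model 3 and 4. In IsoL 1 to 4 it was 0.09, 0.06, 0.11 and 0.14, so Model 1 and Model 2 were lowest by that mean. Among the members, Chrna4, Chrnb2 and Chrna7 did not share the pattern. Of 10 cholinergic neuron genes, 4 (Chat, Slc5a7, Slc18a3 and Prima1) had Model 1 and Model 2 as their lowest pair, against 7.46% of all tested genes. Of these, Chat, Slc5a7 and Slc18a3 were already counted among the habenula markers, and only Prima1 was not.

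**Figure D4:**
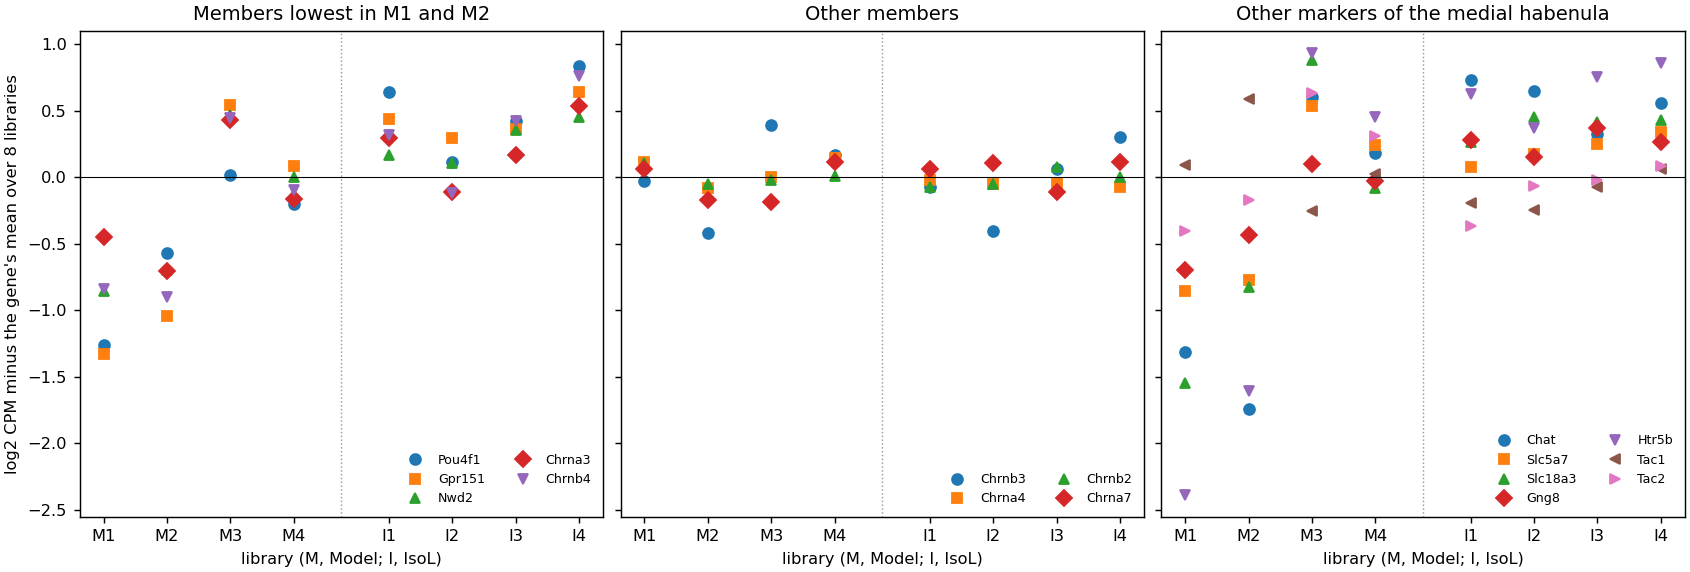
Log2 CPM of each gene minus its mean over the 8 libraries, by library, for the 5 members lowest in Model 1 and Model 2 (left), the other 4 members (middle) and 7 further habenula markers (right). On the left all genes are lowest in Model 1 and Model 2 and at or above zero in Model 3, in the middle only Chrnb3 moves far from the zero line, and on the right Chat, Slc5a7, Slc18a3, Gng8 and Htr5b are lowest in Model 1 and Model 2 while Tac1 is not.

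By root mean square difference between centred log2 CPM profiles over the 8 libraries, the genes most like the mean of Gpr151, Chrna3 and Chrnb4 were looked up among 14037 genes with a mean of at least 1 CPM. Nwd2 had rank 3 at 0.121. It was not part of that mean, but it is a member of the list drawn up with these data known, so its rank is only a description. The 8 genes outside the list with the smallest differences included Scube1 (0.116), Tex15 (0.166), Zbtb16 (0.169), Flt3l (0.184), Slc5a7 (0.194), Plin4 (0.200) and Syt15 (0.218). Scube1, which encodes a secreted and cell surface protein with EGF-like domains, read 15.7, 16.5, 43.5 and 28.5 CPM in Model 1 to 4 and 32.7, 30.5, 36.9 and 38.5 CPM in IsoL 1 to 4, the low pair being Model 1 and Model 2. Pou4f1 ranked 34 at 0.28 and Chrnb3 ranked 673 at 0.44. This ranking leans on single libraries: only 1 of the 8 stayed among the first 8 without Model 2, 3 without Model 1 and 4 without Model 3.

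Levels were compared between members per gene length. In the Model libraries mean FPKM was 22.6 ± 1.42 for Chrna4 and 15.0 ± 0.541 for Chrnb2 (SD, n = 4), whose ranges were apart from each other and from all below. Gpr151 (4.88 ± 2.94), Nwd2 (4.57 ± 2.01), Chrna7 (2.70 ± 0.274), Chrnb3 (2.63 ± 0.614), Chrna3 (2.42 ± 0.897), Pou4f1 (1.68 ± 0.603) and Chrnb4 (1.30 ± 0.623) followed, each overlapping its neighbour in that order. In the IsoL libraries the order began the same way, with Chrna4 at 21.2 ± 0.255, Chrnb2 at 14.8 ± 0.794, Gpr151 at 7.84 ± 0.888 and Nwd2 at 6.25 ± 0.740, and ranges were also apart between Nwd2 and Pou4f1, which came next at 3.28 ± 0.711. Chrnb4 was last in both groups.

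**Figure D5:**
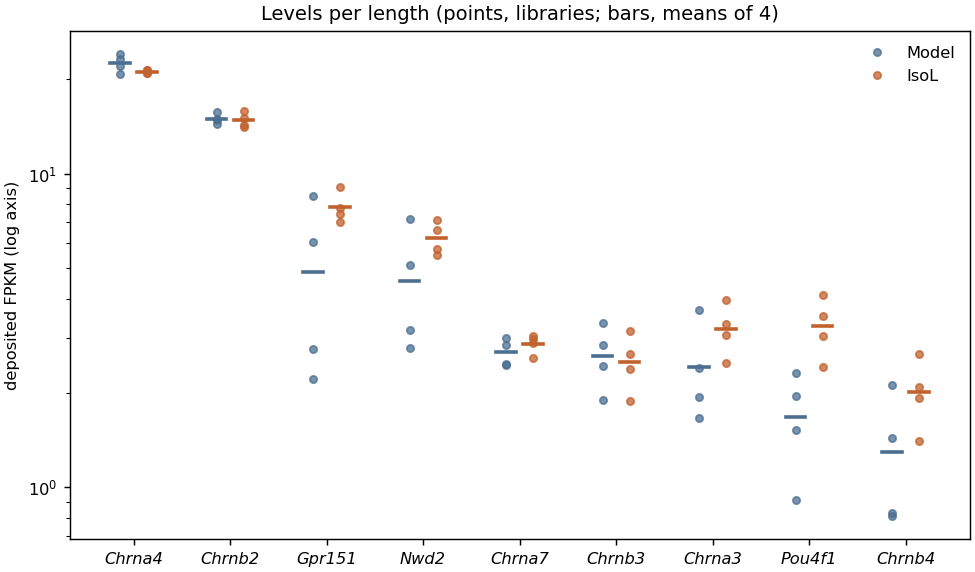
Deposited FPKM of each member (log axis) in the 4 Model and 4 IsoL libraries, with a bar at each group mean, ordered by the Model mean. Chrna4 and Chrnb2 stand above the rest with tight points, and Gpr151, Nwd2, Chrna3, Pou4f1 and Chrnb4 have Model points spread over a wider range.

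The share of the brain-wide against the habenular receptor genes moved with the libraries. Chrna4 over Chrnb2 in FPKM kept to 1.35 to 1.61 in all 8 libraries, a 1.19-fold span. Chrna4 over Chrna3 was 12.0, 12.5, 5.995 and 10.0 in Model 1 to 4 and 6.48, 8.41, 6.97 and 5.28 in IsoL 1 to 4, a 2.37-fold span with Model 3 inside the IsoL range. Relative to Chrnb4, Nwd2 spanned 1.47-fold, Pou4f1 1.73-fold and Gpr151 1.87-fold.

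The other nicotinic subunit genes number 10 in the table. Of these, 5 could be tested, 0 passed and 2 had an unadjusted p under 0.05 (edgeR), and Chrna9, Chrna10, Chrnd, Chrne and Chrng were too low to test, Chrnd with 0 reads in all 8 libraries. Of the 5, 3 lay below and 2 above the Model level, with a median log2 fold change of -0.30. Chrna6, a subunit gene of midbrain dopamine neurons that lies 3481 bases from Chrnb3 on chromosome 8 in the deposited table, read 27.1, 23.1, 23.2 and 28.7 CPM in Model 1 to 4 and 15.8, 15.4, 20.6 and 22.0 CPM in IsoL 1 to 4. All 4 IsoL libraries were below all 4 Model libraries, with a log2 fold change of -0.46, a standard error of 0.12 and an adjusted p of 0.133 (edgeR). Chrna2 had a log2 fold change of -1.07 with a standard error of 0.41 and an adjusted p of 0.291 (edgeR), with Model 2 its highest library at 4.57 CPM. Without Model 2 its log2 fold change was -0.49 (adjusted p 0.545, edgeR).

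Genes for chaperones and modulators of nicotinic receptors gave 0 passes among 11 tested of 12, with 3 at an unadjusted p under 0.05 (edgeR) and a median log2 fold change of -0.05. Lypd6, whose product binds the receptor at the cell surface, read 28.9 to 34.4 CPM in Model and 38.2 to 41.4 CPM in IsoL, without overlap. Its log2 fold change was 0.31 (SE 0.07) with an adjusted p of 0.084 (edgeR). That adjusted p became 0.023 without Model 2 and 0.103 to 0.212 with any other single library left out. Ly6h, of the same family, read 93.1 to 96.4 CPM in Model and 75.6 to 89.7 CPM in IsoL, at -0.22 (SE 0.05) and an adjusted p of 0.115 (edgeR). Lypd1, a prototoxin gene of the family, read 32.7, 34.9, 8.42 and 19.0 CPM in Model 1 to 4 and 26.1 to 33.0 CPM in IsoL, being lowest in Model 3 and Model 4.

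Markers of neighbouring regions moved between the groups as well, and their part in the members' values was not tested. Of 12 dorsal midbrain markers tested of 13, 3 were higher in IsoL and 0 lower by edgeR's adjusted p (Dmbx1, Tfap2d and Mab21l2, all transcription factor genes or developmental regulators). Mab21l2 went from 1.26 to 3.70 CPM on average, a log2 fold change of 1.55 (SE 0.29) with an adjusted p of 0.047 (edgeR). Dmbx1 had 0, 5, 1 and 0 reads and Tfap2d 7, 8, 5 and 5 reads in Model 1 to 4. Both thus passed the filter on low counts only through the IsoL group, where they were higher. The list summed to 23.9 to 42.2 CPM in Model and 47.0 to 83.1 CPM in IsoL. Pou4f2, a relative of Pou4f1, read 0.350, 0.563, 0.139 and 0.136 CPM in Model 1 to 4 and 4.79, 0.638, 0.886 and 3.67 CPM in IsoL 1 to 4, and both genes were highest in IsoL 1 and IsoL 4. The Model values of Pou4f2 were 5, 9, 2 and 2 reads, those of Model 3 and Model 4 being under the floor of 3 reads. Without IsoL 1 or without IsoL 4, Pou4f2 was too low to test. The ratio of Pou4f1 to Chrnb4 in FPKM was 1.10, 1.88, 1.09 and 1.36 in Model 1 to 4 and 1.84, 1.73, 1.46 and 1.54 in IsoL 1 to 4, and its groups overlapped through Model 2.

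Of 18 hypothalamus markers tested of 19, 1 was lower in IsoL by edgeR's adjusted p (Pmch, log2 fold change -0.89, SE 0.15, adjusted p 0.047, and 0.067 without Model 2), 14 lay below the Model level, and the summed level was 259.6 to 323.3 CPM in Model and 128.1 to 233.9 CPM in IsoL. The midbrain dopamine neuron list, which holds Chrna6, had 0 passes (6 at an unadjusted p under 0.05, edgeR), 9 of 9 below the Model level, and it summed to 567.8 to 655.9 against 443.7 to 585.1 CPM. The 6 tested of 8 choroid plexus markers all lay above the Model level, and all 8 summed to 328.7 to 378.7 against 410.2 to 1649 CPM, with Ttr at 0.458 CPM in IsoL 4 and 609.3 CPM in IsoL 1. Thalamus markers, 1642 to 1805 against 1491 to 1822 summed CPM, and those of the pineal gland, 2.098 to 9.64 against 4.93 to 7.74, overlapped. Of 7 serotonin neuron markers tested of 8, 0 passed and 2 had an unadjusted p under 0.05 (edgeR). Model 1 and Model 2 were the lowest pair for 2 of the 7, against 7.46% of all tested genes, and not for the others. These 2 were Tph2 and Slc6a4, which define serotonin neurons, with Tph2 at 1.75, 1.001, 14.1 and 10.7 CPM in Model 1 to 4. Both were low in IsoL 2 and IsoL 3 too (3.36 and 2.21 CPM for Tph2). Pou4f1, Gpr151, Nwd2, Chrna3 and Chrnb4 were each lowest of the IsoL libraries in IsoL 2, at 11.4, 12.5, 57.9, 13.2 and 5.28 CPM. The number of calls among all these lists, 4 in the fit of all libraries, was 0 without Model 1, Model 4 or IsoL 2. It was 1 without Model 3, IsoL 1 or IsoL 4, 2 without IsoL 3 and 7 without Model 2. The call without IsoL 4 was Slc18a2, of the midbrain dopamine neuron list, which was not among the 4. Those without IsoL 3 were Pmch and Isl1, and Isl1, of the cholinergic neuron list, was not among the 4 either.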

How the data were processed

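Groups were taken from the sample labels. Per the labels, polyadenylated RNA was randomly primed, with no strand marking stated. The submitters' processing notes name fastp 0.22.0, HISAT2 2.1.0 and HTSeq 0.9.1; no genome build is given in the sources used here. The deposited table gives raw read counts, FPKM values made from them by the authors, per the file headers, and gene length as another deposited value. Every deposited FPKM above 0 matched counts per length and total to a relative difference of 1.68e-07 or less. Of 21959 listed genes, 51 had no symbol.

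Counts were filtered with filterByExpr, scaled with TMM (factors 0.983 to 1.01) and fitted in edgeR 4.0.16 (R 4.3.3; robust quasi-likelihood, Benjamini-Hochberg over 14536 genes, adjusted p at most 0.05). CPM uses the TMM library sizes, and log2 CPM a prior count of 2. The scripts were tested on simulated data. The floor of 3 counts covers counting error only. The members and all lists were chosen with earlier results of these data known. The rule for naming genes took the 9 members, from each further list up to 4 genes that passed or else the smallest p pair, its defining markers, and the 8 genes nearest in profile; Tex15 to Syt15 are named only, genes of this rule from lists described by their sums are mostly not described, and 1 of the 8 is not reported here. Chrna5, Lypd1, Calb2 and Adar, and any marker named beyond this, were chosen after their values were seen. Alternatives were DESeq2 size factors, no filter, a replicate block, each library left out, DESeq2 1.42.0, limma voom (3.58.1, with a quality weight for each library) and another likeness measure. Promoter windows are from RefSeq (GRCm38.p6), matched for 7 of 9 symbols. Figures used matplotlib 3.10.9 in Python 3.11.15. The list of cholinergic neurons (0 of 10 passed) is described in the text only by its lowest pairs. The lists not described are those of brainstem motor and sensory neurons (0 of 2) and cortex and hippocampus (0 of 11).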

Additional observations from a re-analysis of the deposited data

How the results depend on the processing

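Of the members, 0 passed the threshold in the fit reported, with DESeq2 size factors, with no filter on low counts, with a replicate block, with each library left out and with limma voom, and 1 passed with DESeq2. The other counts moved more, and the cause was not tested. Against 40 genes past the threshold among all those tested, there were 74 with no filter and 17 with a replicate block. DESeq2 gave 312 and limma voom 238. With 1 library left out there were 6 to 146 (6 without Model 4 or without IsoL 2, 146 without Model 2). The runs with no filter and with DESeq2 took in 18438 genes, against 14536 in the fit reported. Against 4 genes of the other lists there were 7 with no filter, 0 with the replicate block, 27 with DESeq2, 13 with limma voom and 0 to 7 with 1 library left out. Of the 8 genes nearest the habenula profile, 2 were shared with a ranking by Pearson correlation, and 1 to 7 with 1 library left out. Same-numbered libraries deviated together with correlations of 0.03, 0.02, 0.07 and 0.06, and only number 4 correlated best with its own, so the numbers were not taken to pair the samples. The fold changes of Chrnb3 and Chrnb2 changed sign in 2 of 13 alternatives each, around values near 0; those of the other 7 members kept their sign in all 13. Depth limits Chrnb4 most, at 45 reads in Model 1.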
